A study of Mus musculus with 16 samples.

Results

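All mice fed a high-fat diet, with or without a drug, were set against mice fed a normal diet, to find the changes of epididymal white fat that neither metformin nor resveratrol undid. The comparison held 15 of the 16 libraries of the series: 4 of normal diet, and 11 high-fat-fed, of which 4 were of the high-fat diet alone (HFD), 4 of HFD + metformin and 3 of HFD + resveratrol (spelled reveratrol in the labels). The remaining HFD + resveratrol library was left out because Crisp1, a gene of the epididymis epithelium, stood above 1000 CPM (counts scaled to a common library size) in it. All were male C57BL/6J mice (strain C57BL/6 in the sample labels) bought at 6 weeks of age. HFD was a 60% fat feed given for 8 weeks, and the drugs were then given for 6 weeks. No normal diet group received a drug, and the labels do not say how long the mice of the HFD group stayed on their diet after week 8. Titles and design name epididymal fat, whereas the extraction text names retina and the treatment text skeletal muscle. The summed level of 15 adipocyte genes was 25853 to 49703 CPM per library, that of 14 retina genes 8.08 to 14.6 CPM and that of 15 skeletal muscle genes 31.1 to 161 CPM.

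White adipocytes store fatty acids as triglyceride and release them again in fasting. On a high-fat diet the epididymal pad enlarges, its adipocytes swell, macrophages gather around them and the tissue becomes less responsive to insulin. Metformin, a biguanide, is the usual first drug for type 2 diabetes, and resveratrol is a plant polyphenol; both are studied as treatments of diet-induced insulin resistance.

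Libraries held 13350585 to 20531032 mRNA counts and 3976504 to 5828645 counts of long non-coding RNA (lncRNA). The labels do not say that the libraries of a group came from separate cages or dissections, so each p-value reflects only how far these libraries differ among themselves. For 1 library of HFD and 1 of HFD + metformin the table's code has no counterpart among the titles; these are called unmatched. The unmatched HFD library stood apart from the other 3 of its group: Itgax, a macrophage integrin, read 36.4 CPM in it against 205 to 272 CPM. Pairs of these 3 differed by a chi-square per degree of freedom of 13.6 to 18.8, and from the unmatched library by 55.9 to 81.5. The codes of the 3 share their first part, the unmatched code does not, and the labels do not explain it. Whether the 3 are independent cannot be told. Ciliated epithelium genes summed to over 300 CPM in 5 libraries (normal diet 2, unmatched HFD + metformin, HFD + metformin 2 and 4, HFD + resveratrol 2) and to at most 122 CPM in the others. Spermatogenic genes summed to 3276 CPM in HFD + metformin 2 and to 42.9 to 124 CPM in the other 14 libraries. In bulk tissue, fewer cells of a type and less RNA per cell cannot be told apart.

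Across 17535 genes tested with edgeR, the mean of the 3 high-fat-fed groups was higher than normal diet for 724 genes (4.13% of genes) and lower for 697 (3.97%). Without the unmatched libraries these counts were 792 and 764, without the 5 libraries rich in ciliated epithelium genes 575 and 391, and with the high-Crisp1 library kept 87 and 138. The pooled call can come from HFD alone, since HFD differed from normal diet at 4050 genes (23.1%), HFD + metformin at 299 (1.71%) and HFD + resveratrol at 26 (0.148%). Metformin differed from HFD at 2445 genes (13.9%) and resveratrol at 732 (4.17%). The comparisons with normal diet share its 4 libraries, and fewer calls in a drug group do not show that its genes were normal.

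Diet changes that remained under both drugs were therefore sought in 2 ways. The stricter way required a gene to differ from normal diet in the same direction in each of the 3 groups, with the largest of its 3 p-values adjusted over all genes. It gave 12 genes: 8 higher (0.0456% of genes) and 4 lower (0.0228%). DESeq2 gave 124 and 99, and an unadjusted p below 0.05 gave 534 (3.05%) and 400 (2.28%). Leaving out 1 library at a time gave 2 to 53 higher and 0 to 10 lower genes, with the fewest higher genes left without HFD + resveratrol replicate 1 and the most without HFD + metformin replicate 2, the library with the spermatogenic genes. Unc79 and Gm4912 were called in every such run, and Cyp2d22 and Med14 in every run but the one without HFD + resveratrol replicate 1. The other 8 genes lost the call in 3 to 13 of the 15 runs, as given with each. None of the 12 was called with the high-Crisp1 library kept, nor without the libraries rich in ciliated epithelium genes, where 1 metformin and 2 resveratrol libraries remained.

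The promoters of 4 of these genes are shown, the 3 with RefSeq entries that rose most and the gene with an entry that fell most. Each is the 250 bases before the RefSeq start site on GRCm38.p6, 5′ to 3′ on the strand of the gene, and RefSeq entries were found for 8 of the 12 genes. Slc5a7 lies on the minus strand with its stretch at chr17:54299035-54299284, Unc79 on the plus strand at chr12:102948609-102948858, Sfrp5 on the minus strand at chr19:42202253-42202502 and Fbxo31 on the minus strand at chr8:121578807-121579056. Capitals mark a TATA box (TATAAA) or a GC box (GGGCGG), searched on both strands.
Slc5a7: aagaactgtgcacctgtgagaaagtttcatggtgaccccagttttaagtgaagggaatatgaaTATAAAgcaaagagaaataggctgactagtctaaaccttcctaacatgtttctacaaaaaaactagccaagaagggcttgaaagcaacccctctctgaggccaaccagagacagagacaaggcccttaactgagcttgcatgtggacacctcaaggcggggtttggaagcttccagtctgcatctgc
Unc79: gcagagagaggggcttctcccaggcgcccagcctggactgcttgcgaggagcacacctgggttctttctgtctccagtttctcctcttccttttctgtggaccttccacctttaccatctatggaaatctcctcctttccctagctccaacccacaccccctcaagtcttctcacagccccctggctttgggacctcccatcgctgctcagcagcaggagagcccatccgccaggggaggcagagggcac
Sfrp5: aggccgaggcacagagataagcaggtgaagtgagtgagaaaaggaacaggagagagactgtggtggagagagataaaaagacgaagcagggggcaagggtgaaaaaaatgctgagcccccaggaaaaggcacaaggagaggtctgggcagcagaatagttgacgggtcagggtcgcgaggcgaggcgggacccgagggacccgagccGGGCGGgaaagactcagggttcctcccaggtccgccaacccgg
Fbxo31: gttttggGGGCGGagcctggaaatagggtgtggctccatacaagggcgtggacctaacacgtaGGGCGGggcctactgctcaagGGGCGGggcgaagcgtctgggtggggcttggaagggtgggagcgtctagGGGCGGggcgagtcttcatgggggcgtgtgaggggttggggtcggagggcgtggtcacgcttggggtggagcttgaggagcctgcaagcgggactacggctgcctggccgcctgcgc
A TATA box was found in Slc5a7, 187 bases before the start site, and in 12.4% of all 32851 RefSeq promoters of this length. A GC box was found in Sfrp5, and 4 were found in Fbxo31, beside 32.7% of all promoters with at least 1. Neither was found in Unc79. None of the 8 promoters held the E-box CACGTG, the cyclic AMP response element TGACGTCA, a PPAR response element, a glucocorticoid response element or a CCAAT box, which says only that these letters are absent from these windows. Of all promoters, 6.02%, 1.55%, 0.0335%, 0.368% and 33.8% held them, in that order.

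Unc79, an auxiliary subunit of the NALCN sodium leak channel that helps set the resting potential of neurons, rose in each fed group. It read 2.46, 2.12, 2.78 and 3.22 CPM in the normal diet libraries. It read 24.3, 21.6, 14.1 and 20.7 CPM with HFD, 15.1, 27.5, 13.1 and 17.6 CPM with HFD + metformin, and 11.4, 17.6 and 10.4 CPM with HFD + resveratrol. The lowest high-fat-fed library was above the highest normal diet library, and both drug groups overlapped with HFD. The pooled log2 fold change was 2.67 (SE 0.25, adjusted p = 0.000198), and the adjusted p over the 3 groups was 0.00729. Metformin differed from HFD by -0.14 (95% interval -0.68 to 0.40) and resveratrol by -0.62 (-1.22 to -0.03), on the log2 scale, in neither case past adjustment (adjusted p = 0.734 and 0.205). HFD itself stood 2.93 above normal diet.

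Gm4912, a predicted gene, also rose in each fed group. Its libraries read 1.92, 1.31, 1.39 and 1.93 CPM on normal diet, 9.10, 10.5, 12.3 and 12.5 CPM with HFD, 8.03, 9.93, 6.27 and 12.1 CPM with HFD + metformin, and 9.41, 8.93 and 5.86 CPM with HFD + resveratrol. The groups did not overlap with normal diet (pooled log2 fold change 2.51, SE 0.22; adjusted p over the 3 groups 0.00673). Tspan6, a membrane scaffold of the tetraspanin family, reached almost the same mean in every high-fat-fed group. Its means were 11.9 CPM (SD 2.04, n = 4) on normal diet, 29.7 (SD 2.06, n = 4) with HFD, 28.5 (SD 6.06, n = 4) with metformin and 27.3 (SD 1.97, n = 3) with resveratrol. The lowest of the 11 fed libraries was 23.7 CPM and the highest normal diet library 14.3 CPM (pooled log2 fold change 1.26, SE 0.13; adjusted p over the 3 groups 0.0129). Metformin differed from HFD by -0.06 (-0.38 to 0.25) and resveratrol by -0.12 (-0.46 to 0.22). The Tspan6 call was lost without HFD + resveratrol 1 (adjusted p = 0.100), normal diet 1 (0.0655) or normal diet 4 (0.0530).

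Sfrp5, a secreted inhibitor of Wnt signalling made by adipocytes, rose at a higher level. It read 68.5, 65.2, 58.7 and 137 CPM on normal diet, 689, 538, 563 and 679 CPM with HFD, 483, 479.8, 202 and 359 CPM with HFD + metformin, and 264, 368 and 368 CPM with HFD + resveratrol. Every fed library was above every normal diet library, while all 7 drug libraries lay below all 4 HFD libraries. The pooled log2 fold change was 2.38 (SE 0.28), and the adjusted p over the 3 groups was 0.0494. Metformin differed from HFD by -0.70 (-1.34 to -0.06, adjusted p = 0.113) and resveratrol by -0.89 (-1.59 to -0.19, adjusted p = 0.133), so that both intervals lay below 0 while neither difference passed adjustment. The call in each group was lost in 13 of the 15 runs that left out 1 library, with an adjusted p of up to 0.162, and held only without HFD + metformin 2 or normal diet 4. It was also lost with no filter on low counts (adjusted p = 0.0732) and without both unmatched libraries (0.119).

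Maged1, an adaptor of the MAGE family, and Gatsl2, a relative of the arginine sensor of the mTOR complex, changed little in size but with small spread. Maged1 means were 141 CPM on normal diet and 210.1, 202 and 205 CPM in HFD, metformin and resveratrol, with ranges of 125 to 161 CPM on normal diet and 188 to 228 CPM in the fed libraries (pooled log2 fold change 0.54, SE 0.07; adjusted p over the 3 groups 0.0494). Gatsl2 means were 35.6, 53.2, 48.7 and 50.7 CPM in the same order, with SDs of 0.979, 1.72, 3.16 and 3.48 (pooled log2 fold change 0.51, SE 0.06; adjusted p over the 3 groups 0.0249). For Maged1 the difference of metformin from HFD was -0.06 (-0.23 to 0.12) and of resveratrol -0.03 (-0.22 to 0.15). For Gatsl2 they were -0.13 (-0.27 to 0.01) and -0.07 (-0.22 to 0.08). Both calls depended on single libraries. That of Maged1 was lost in 13 of the 15 runs that left out 1 library (adjusted p up to 0.235), all but those without HFD + metformin 2 or normal diet 2, and also with RLE size factors (0.0664) and with no filter on low counts (0.109). That of Gatsl2 was lost in 11 of 15 (adjusted p up to 0.103) and held without the unmatched HFD library, HFD + metformin 1, HFD + metformin 2 or HFD + resveratrol 3.

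Slc5a7 and Paqr9 also differed in each group, but a drug moved them back in part. Slc5a7, the high-affinity choline transporter known from cholinergic neurons, read 2.07, 1.77, 2.52 and 1.58 CPM on normal diet, 77.2, 177, 142 and 253 CPM with HFD, 36.8, 103, 26.5 and 57.0 CPM with metformin, and 19.8, 58.7 and 11.6 CPM with resveratrol. All fed libraries exceeded normal diet, with a pooled log2 fold change of 5.02 (SE 0.60; adjusted p over the 3 groups 0.0494). The call in each group was lost in 12 of the 15 runs that left out 1 library (adjusted p up to 0.162), with RLE size factors (0.0533) and with no filter on low counts (0.0753). It held without the unmatched HFD + metformin library, HFD + metformin 2 or HFD + resveratrol 3. Resveratrol lowered it against HFD by a log2 value of -2.44 (-3.72 to -1.15, adjusted p = 0.0418). Metformin gave -1.54 (-2.65 to -0.42, adjusted p = 0.0600). Elavl3 and Tph2 also rose, so that 3 of 11 tested neuronal genes were called, beside 4.13% of all genes that rose. Slc5a7 and Tph2 carried the summed level of the neuronal list in HFD. The other 16 genes of the list summed to 9.21 to 34.3 CPM on normal diet, 11.5 to 17.9 CPM with HFD, 11.6 to 48.4 CPM with metformin and 13.8 to 29.4 CPM with resveratrol, ranges that overlapped. Paqr9, a membrane protein of the progestin and adipoQ receptor family, had means of 24.4, 289.9, 107 and 84.8 CPM in the order normal diet, HFD, metformin and resveratrol. Both drugs lowered it against HFD (adjusted p = 0.0120 and 0.0347), and every drug library, at 66.3 CPM or more, still exceeded the normal diet maximum of 35.3 CPM. The Paqr9 call in each group was lost in 9 of the 15 runs that left out 1 library (adjusted p up to 0.170).

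Of the 4 genes that fell in each group, Fbxo31 and Dtnbp1 showed no called return under a drug. Fbxo31, a substrate receptor of an SCF ubiquitin ligase, read 119, 105, 101 and 111 CPM on normal diet, 52.5, 44.7, 49.6 and 49.7 CPM with HFD, 61.5, 53.4, 46.2 and 55.3 CPM with metformin, and 56.4, 57.5 and 73.3 CPM with resveratrol. The highest fed library stood well below the lowest normal diet library, for a pooled log2 fold change of -0.99 (SE 0.08; adjusted p over the 3 groups 0.0232). Resveratrol stood 0.35 above HFD (0.11 to 0.59, adjusted p = 0.0913). The call was lost in 5 of the 15 runs that left out 1 library, those without HFD 2, HFD + resveratrol 1 or 2, or normal diet 1 or 4 (adjusted p up to 0.170). Dtnbp1, which encodes dysbindin, a subunit of a complex that builds lysosome-related organelles, had means of 58.6, 41.5, 37.2 and 40.5 CPM in the 4 groups, a pooled log2 fold change of -0.56 (SE 0.06; adjusted p over the 3 groups 0.0263). Its fed range of 34.8 to 44.9 CPM lay below the normal diet range of 53.6 to 63.1 CPM. Its call was lost in 8 of the 15 runs (adjusted p up to 0.170).

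Cyp2d22, a cytochrome P450 monooxygenase, and Med14, the central scaffold subunit of the Mediator complex, had an adjusted p of 3.79e-05 in the pooled comparison. Cyp2d22 read 163, 138, 138 and 168 CPM on normal diet, 55.1, 47.9, 37.4 and 38.4 CPM with HFD, 59.8, 71.0, 63.8 and 66.8 CPM with metformin, and 61.7, 73.8 and 62.0 CPM with resveratrol. Both drugs raised it over HFD, by 0.55 (0.28 to 0.82) and 0.56 (0.27 to 0.85), yet both groups stayed at log2 -1.21 and -1.20 of normal diet. Med14 means were 108, 59.8, 72.7 and 73.2 CPM. Both drugs raised it over HFD (log2 difference 0.28, adjusted p = 0.0166, and 0.29, adjusted p = 0.0367), and both groups stayed at -0.58 and -0.57 of normal diet.

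**Figure D1:**
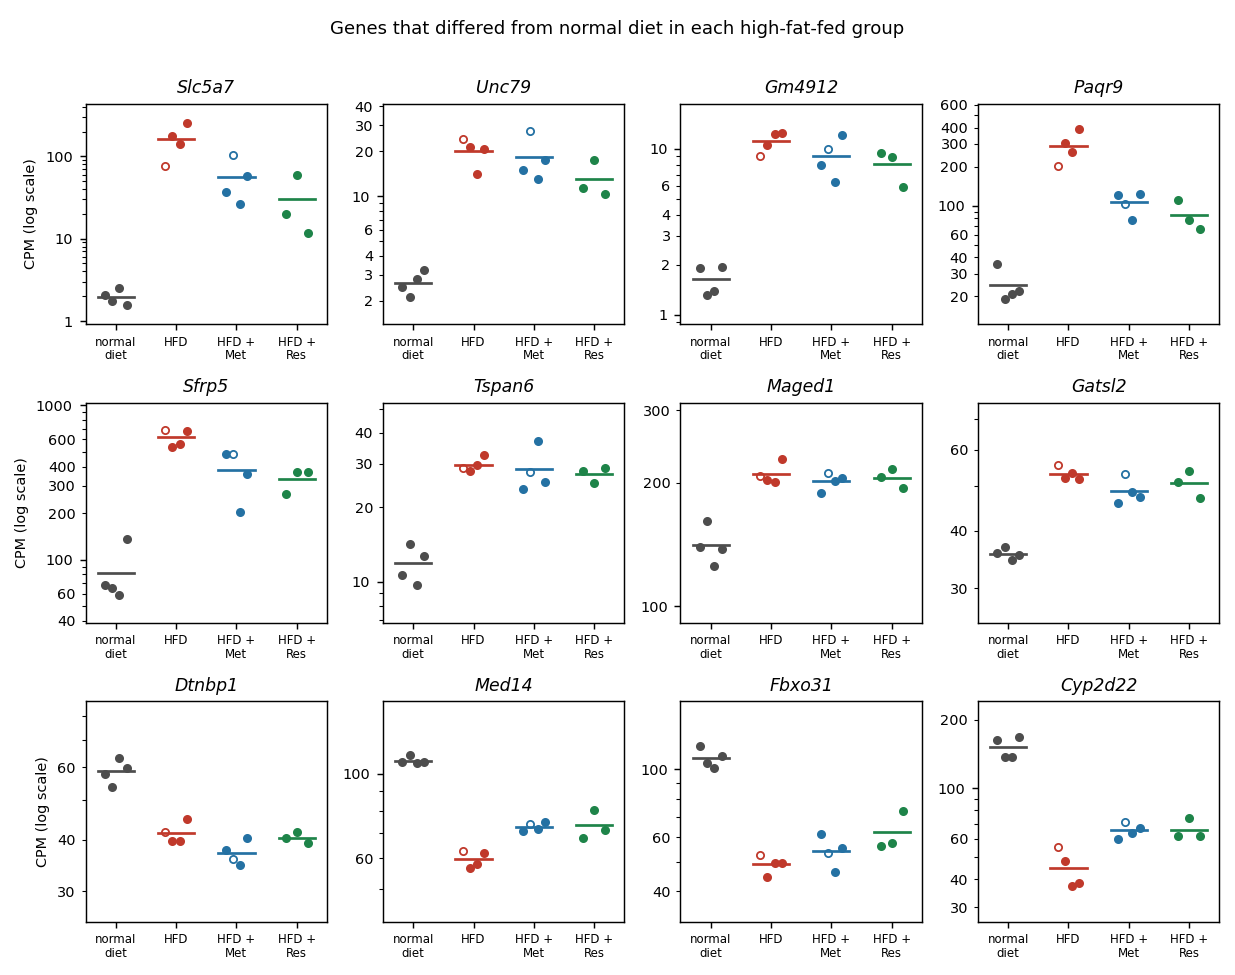
Normalised level in CPM (log axis) of the 12 genes that differed from normal diet in each high-fat-fed group; each point is 1 library (4 normal diet, 4 HFD, 4 HFD + metformin, written HFD + Met, and 3 HFD + resveratrol, written HFD + Res), open points are the 2 unmatched libraries and bars are group means. In each panel no fed library overlaps with normal diet, and all drug libraries of Paqr9, Sfrp5, Cyp2d22 and Med14 lie between those of HFD and normal diet.

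The wider way, set after values had been seen, kept a gene when the pooled call was made, all 11 fed libraries lay on one side of all 4 normal diet libraries, and neither drug was called to move it back from HFD. It kept 166 higher (0.947% of genes) and 219 lower genes (1.25%), called retained here. A drug was called to move the gene back for 433 of the 1421 pooled genes (2.47% of genes tested; 245 that rose and 188 that fell), by metformin alone for 134 and 82, by both drugs for 96 and 80, and by resveratrol alone for 15 and 26. Leaving out 1 library gave 162 to 361 retained higher and 188 to 310 retained lower genes, with the 361 reached without HFD + metformin 2. Absence of a called return does not show that a drug had no effect: the 95% interval of at least 1 drug against HFD lay wholly on the side of normal diet for 64 of the 166 and 85 of the 219. The wider way did not ask a drug group to differ from normal diet on its own. Resveratrol did so at 26 genes in all, so most retained genes were not called in that group. Of those described below, Acacb, Col15a1, Cyp2e1 and Nampt were called against normal diet in neither drug group. Dgat2, Agpat2, Fgf13, Hmgcs1, Cmpk2, Hsd11b1, Sgk1, Irf4, Per1, Igf1 and Pdk1 were not called with resveratrol. Nor were Dcn, Vegfa, Hsd17b10, Nrf1 and Atf4. These names do not cover every retained gene described. With metformin 1 gene of the insulin signalling list was called lower, so at least 1 of Igf1 and Pdk1 was called in neither drug group.

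Genes of triglyceride assembly and of expanding adipocytes were among the retained increases. In the triglyceride synthesis list 4 of 16 tested members rose and none fell, beside 4.13% of all genes that rose (median pooled log2 fold change 0.03, against -0.01 over all genes). The count was 2 to 4 without 1 library at a time, 2 without the libraries rich in ciliated epithelium genes and 2 with a factor of only fed and normal diet. Dgat2, which adds the last fatty acid to triglyceride, read 244, 127, 169.5 and 341 CPM on normal diet, 1084, 1348, 1109 and 1321 CPM with HFD, 765, 660.2, 434 and 855 CPM with metformin, and 762, 568 and 551 CPM with resveratrol. The fed groups stood above normal diet throughout and the drug groups below HFD, with a pooled log2 fold change of 1.86 (SE 0.26, adjusted p = 0.00150). Metformin differed from HFD by -0.84 (-1.44 to -0.24, adjusted p = 0.0570) and resveratrol by -0.95 (-1.61 to -0.30, adjusted p = 0.0891), both just outside the threshold. Agpat2, which makes phosphatidic acid earlier in the same path, had means of 74.3, 201, 139 and 133 CPM in the order normal diet, HFD, metformin, resveratrol (pooled log2 fold change 1.06, SE 0.15, adjusted p = 0.00220). At Agpat2 both drugs also lay below HFD without passing adjustment, by -0.54 (-0.91 to -0.16) and -0.60 (-1.01 to -0.18). Gpd1 and Mogat2 rose in the pooled comparison with overlap.

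Of 16 genes known to mark adipocyte expansion, 7 rose and 1 fell, beside 4.13% and 3.97% of all genes (median 0.68). This list, like the others, was chosen with earlier results of these data known, so such counts are a description. Fgf13, an intracellular protein of the fibroblast growth factor family, was retained with means of 10.9, 96.6, 50.4 and 36.5 CPM (pooled log2 fold change 2.37, SE 0.35, adjusted p = 0.00230), although metformin differed from HFD by -0.94 (-1.72 to -0.15) and resveratrol by -1.40 (-2.28 to -0.53). Mest, an imprinted gene that tracks fat mass gain, had means of 217, 1293, 571 and 437 CPM (1.66, adjusted p = 0.0248), and its fed minimum of 295 CPM lay under the normal diet maximum of 432 CPM. Npr3, the clearance receptor of natriuretic peptides, had means of 1121, 2507, 2046 and 2019.9 CPM, a pooled log2 fold change of 0.96 (SE 0.19, adjusted p = 0.00891), and overlapped with normal diet by 1 metformin library at 1367 CPM. Metformin and resveratrol differed from HFD at Npr3 by -0.29 (-0.76 to 0.17) and -0.31 (-0.82 to 0.20). Lep, the satiety hormone leptin, had means of 402, 3182, 1072 and 942 CPM and was lowered by metformin (adjusted p = 0.0342), and resveratrol gave a similar difference of -1.76 (-2.79 to -0.72) with an adjusted p of 0.0560. Without the libraries rich in ciliated epithelium genes 6 of the list rose, and without 1 library at a time 5 to 10.

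Apln, the peptide apelin that adipocytes secrete, was the adipokine whose rise was retained. It read 9.53, 6.82, 9.31 and 12.7 CPM on normal diet, 43.2, 30.9, 38 and 22.0 CPM with HFD, 33.3, 26.8, 21.8 and 21.8 CPM with metformin, and 55.3, 24.1 and 40.1 CPM with resveratrol. The resveratrol mean of 39.9 CPM was not below that of HFD, 33.5 CPM. The pooled log2 fold change was 1.77 (SE 0.25, adjusted p = 0.00193), and resveratrol differed from HFD by 0.25 (-0.38 to 0.88). Prkag3, a regulatory subunit of the energy sensor AMPK known mainly from skeletal muscle, had means of 5.09, 15.9, 12.8 and 15.7 CPM (1.53, SE 0.21, adjusted p = 0.00149), with resveratrol at -0.02 of HFD (-0.55 to 0.52). Of 8 tested skeletal muscle genes none rose and 2 fell, beside 4.13% and 3.97% of all genes. Myh4 and Atp2a1 were called lower on the weight of normal diet replicate 1. Myh4 read 47.8 CPM there against at most 0.0505 CPM in the other normal diet libraries. Cmpk2, an interferon-induced mitochondrial nucleotide kinase, stood at 12.1, 19.9, 19.9 and 18.4 CPM (0.68, SE 0.09, adjusted p = 0.00133). It was the only retained gene of the interferon-stimulated list. In that list 3 of 28 rose, beside 4.13% of all genes, and 2 to 5 without 1 library at a time. Metformin and resveratrol differed from HFD at Cmpk2 by 0.002 (-0.22 to 0.23) and -0.11 (-0.35 to 0.13).

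**Figure D2:**
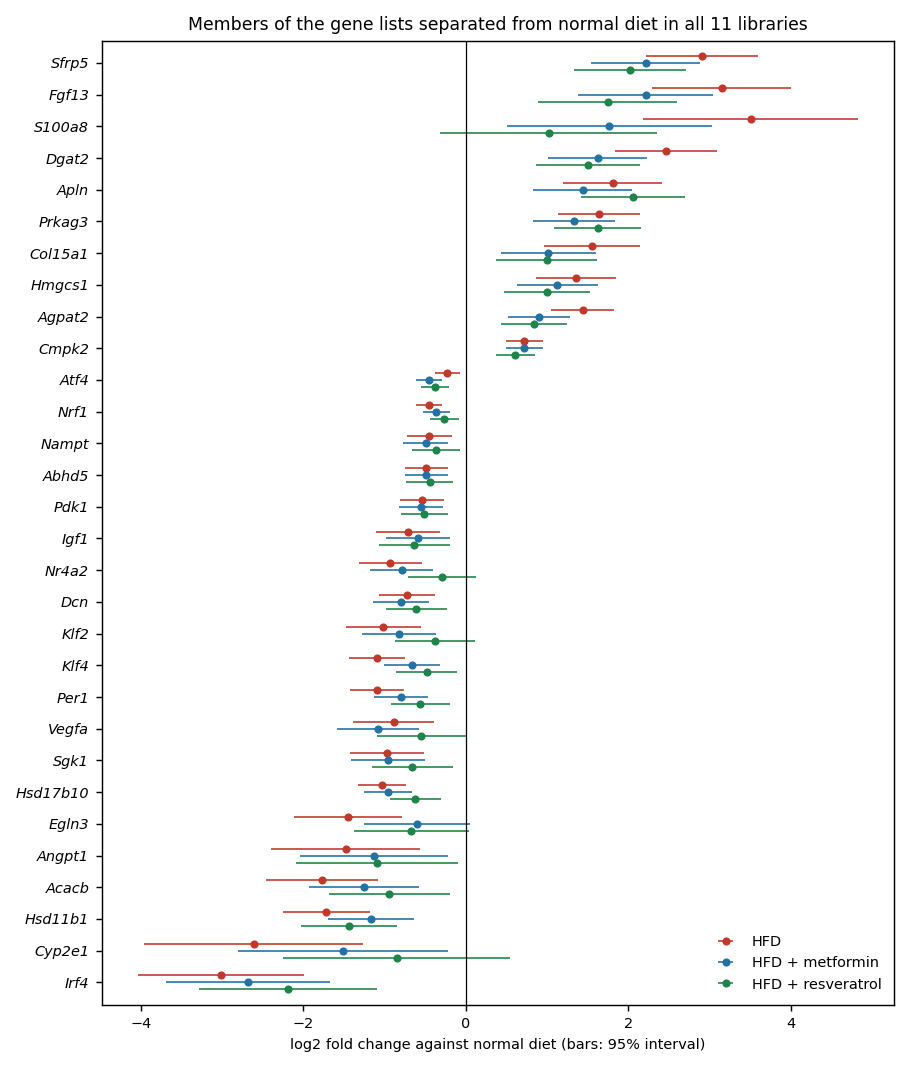
Log2 fold change against normal diet in HFD, HFD + metformin and HFD + resveratrol for the members of the gene lists that were retained, other than the thermogenic list, with 95% intervals as bars; the genes were chosen by these values, so their side of 0 is a description. The 3 groups lie close together for Cmpk2, Igf1, Pdk1 and Prkag3, and spread from HFD towards 0 for Dgat2, Cyp2e1, Acacb and S100a8.

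Among the decreases, genes that respond to glucocorticoids and feeding state are described first. Irf4, a transcription factor that fasting induces in adipocytes and that promotes lipolysis, read 121, 243, 217 and 89.7 CPM on normal diet, 17.3, 22.9, 22.5 and 20.3 CPM with HFD, 55.7, 19.9, 12.3 and 17.1 CPM with metformin, and 41.3, 21.7 and 47.2 CPM with resveratrol. Every fed library lay below every normal diet library, for a pooled log2 fold change of -2.63 (SE 0.34, adjusted p = 0.00133). Metformin stood at 0.33 of HFD (-0.63 to 1.30) and resveratrol at 0.82 (-0.21 to 1.86), on the log2 scale. Against normal diet the resveratrol group missed the threshold on its own (adjusted p = 0.125).

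In the glucocorticoid list, 6 of 14 tested members fell and none rose, beside 3.97% of all genes that fell, and the list median was -0.50. The median was -0.60, -0.57 and -0.49 in HFD, metformin and resveratrol. Hsd11b1, the enzyme that regenerates active glucocorticoid inside adipocytes, read 216, 116, 145 and 148 CPM on normal diet, 61.6, 42, 44.2 and 42.3 CPM with HFD, 66.4, 49.9, 57.6 and 105 CPM with metformin, and 46.2, 65.0 and 62.1 CPM with resveratrol (pooled log2 fold change -1.44, SE 0.19, adjusted p = 0.00133). The highest fed library, HFD + metformin 4 at 105 CPM, lay just under the lowest normal diet library at 116 CPM. Metformin stood 0.55 above HFD (0.03 to 1.08, adjusted p = 0.124) and resveratrol 0.28 (-0.28 to 0.85). Sgk1, a kinase that glucocorticoids induce, had means of 219, 112, 113 and 139 CPM (-0.86, SE 0.17, adjusted p = 0.00822), with metformin at 0.01 of HFD (-0.44 to 0.47). Klf9, Cdkn1a and Mt1 fell with overlap, and Cdkn1a was lower with metformin than with HFD (-1.11, -1.66 to -0.56, adjusted p = 0.0192). Without the libraries rich in ciliated epithelium genes 3 members fell, and without 1 library at a time 4 to 6.

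Per1, a repressor of the circadian clock and also a glucocorticoid target, read 150.4, 178, 213 and 212 CPM on normal diet, 108, 89.0, 74.8 and 80.8 CPM with HFD, 129.8, 119, 89.3 and 94.0 CPM with metformin, and 119, 123 and 140.4 CPM with resveratrol. Its groups did not overlap with normal diet (pooled log2 fold change -0.82, SE 0.12, adjusted p = 0.00230). Resveratrol stood 0.53 above HFD (0.18 to 0.89, adjusted p = 0.0785) and metformin 0.29 (-0.04 to 0.62), and against normal diet resveratrol missed the threshold on its own (adjusted p = 0.230). Of 19 clock genes 4 fell and none rose, beside 3.97% of all genes that fell, Npas2 and Nr1d1 among them. Without the libraries rich in ciliated epithelium genes 2 fell, and without 1 library at a time 3 or 4. Metformin moved Nr1d1 back, but its pooled call (adjusted p = 0.0486) was lost in 13 of the 15 runs that left out 1 library (adjusted p up to 0.190) and in 6 of 9 other settings. The time of day of collection is not given in the sources used here. Of 20 immediate early genes, which handling and dissection also induce, 5 fell and none rose (Fosl2, Klf2, Nr4a1, Nr4a2 and Nr4a3), beside 3.97% of all genes that fell, with a median of -0.37. The count was 2 to 6 without 1 library at a time, 2 without the libraries rich in ciliated epithelium genes and 1 with a factor of only fed and normal diet. The part of collection time or handling in these falls was not tested.

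**Figure D3:**
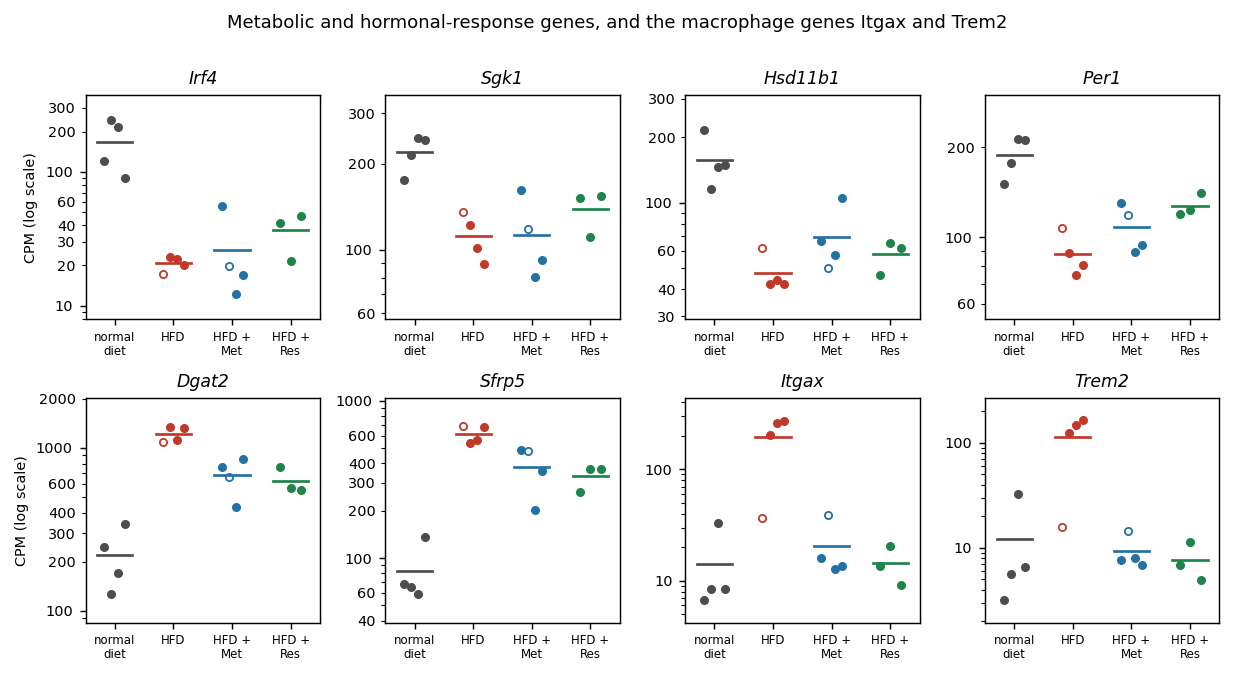
Normalised level in CPM (log axis) by library for 6 retained genes and for the macrophage genes Itgax and Trem2, with open points for the 2 unmatched libraries and bars for group means. Irf4, Sgk1, Hsd11b1 and Per1 lie below normal diet and Dgat2 and Sfrp5 above it in every fed group, whereas Itgax and Trem2 are high in 3 HFD libraries and overlap with normal diet in both drug groups. For metformin this overlap comes through normal diet 3 alone. The other normal diet libraries read at most 8.49 CPM for Itgax and 6.51 CPM for Trem2, and the lowest metformin libraries 12.7 and 6.83 CPM.

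Genes that turn glucose into fatty acids moved in opposite directions. Acacb, the acetyl-CoA carboxylase whose product blocks fatty acid oxidation, was retained, with means of 1007, 296, 422 and 525 CPM (pooled log2 fold change -1.32, SE 0.24, adjusted p = 0.00632). Its fed range was 207 to 696 CPM and its normal diet range 888 to 1114 CPM. Resveratrol stood 0.83 above HFD (0.11 to 1.54) and metformin 0.51 (-0.16 to 1.19), neither past adjustment. Acaca, the carboxylase of fatty acid synthesis, had means of 932, 331, 409 and 504 CPM (-1.19, adjusted p = 0.00859) and overlapped by its highest fed library, 647 CPM, over a normal diet minimum of 622 CPM. Tkt fell too, while Scd2, Srebf1, G6pdx and Pgd rose. Scd2, a fatty acid desaturase, had means of 122, 1076, 449 and 287 CPM (2.08, SE 0.47, adjusted p = 0.0171), and its call was lost without normal diet 1, 3 or 4 (adjusted p up to 0.0601). In all, 4 of 23 genes of this list rose and 3 fell, beside 4.13% and 3.97% of all genes, with a median of -0.13. Without 1 library at a time 1 to 5 rose and 2 to 4 fell, and with a factor of only fed and normal diet 1 rose.

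In the insulin signalling list 3 of 24 members fell (Igf1, Pdk1 and Grb10) and none rose, beside 3.97% of all genes that fell. Without 1 library at a time 1 to 5 fell. Igf1, the growth factor that acts through a receptor akin to that of insulin, was retained at means of 388, 237, 257 and 250.2 CPM (-0.65, SE 0.15, adjusted p = 0.0185), with metformin at 0.12 of HFD (-0.27 to 0.52) and resveratrol at 0.08 (-0.35 to 0.51). The call of Igf1 was lost without normal diet 1 (adjusted p = 0.0601) or normal diet 2 (0.0698). Pdk1, the kinase that restrains pyruvate dehydrogenase and is not the kinase of the insulin cascade that shares its abbreviation, fell from 91.0 CPM to 62.6, 62.1 and 63.9 CPM (-0.53, SE 0.10, adjusted p = 0.00671), with metformin at -0.01 of HFD (-0.28 to 0.25) and resveratrol at 0.03 (-0.26 to 0.32). Insr, the insulin receptor, had means of 401, 230.0, 296 and 348 CPM and missed the threshold in the pooled comparison (-0.48, SE 0.14, adjusted p = 0.0524). It was called lower in 5 of 9 other settings and in 4 of the 15 runs that left out 1 library. Slc2a4, the insulin-responsive glucose transporter, had means of 85.1, 127, 124 and 127 CPM (0.57, SE 0.19, adjusted p = 0.0853). Pparg, the master regulator of adipocytes, and Adipoq, adiponectin, were not called at -0.16 (-0.56 to 0.24) and -0.09 (-0.62 to 0.44).

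Further large decreases came from genes of varied function. Eif4ebp3, an inhibitor of cap-dependent translation, read 24 to 27.7 CPM on normal diet and had means of 4.21, 5.02 and 9.75 CPM with HFD, metformin and resveratrol (pooled log2 fold change -2.11, SE 0.28, adjusted p = 0.00133), and resveratrol stood 1.21 above HFD (0.37 to 2.05). Fam13a, a locus gene of fat distribution, had means of 1311, 172, 464 and 634 CPM (-1.82, SE 0.38, adjusted p = 0.0115), with metformin 1.43 (0.35 to 2.51) and resveratrol 1.88 (0.74 to 3.02) above HFD. Neither return of Fam13a passed adjustment (adjusted p = 0.0660 and 0.0619). Cyp2e1, an ethanol- and ketone-oxidising cytochrome P450, had means of 3031, 495, 1064 and 1678 CPM (-1.66, SE 0.45, adjusted p = 0.0416), but 1410.4 CPM in the unmatched HFD library against 154 to 230.3 CPM in the other 3. The pooled call of Cyp2e1 was lost in 11 of the 15 runs that left out 1 library (adjusted p up to 0.128, without normal diet 1). It was also lost with a factor of only fed and normal diet (0.116), with no filter on low counts (0.0646) and without the libraries rich in ciliated epithelium genes (0.222). Its retained status rests on wide intervals, since resveratrol stood 1.76 above HFD (0.39 to 3.13, adjusted p = 0.128). Hsd17b10, a mitochondrial enzyme of isoleucine breakdown, had means of 90.3, 44.3, 46.3 and 58.7 CPM (-0.87, SE 0.11, adjusted p = 0.00133), with resveratrol 0.41 above HFD (0.09 to 0.72). Vegfa, the main angiogenic factor, had means of 226, 122, 107 and 155 CPM (-0.84, SE 0.18, adjusted p = 0.0153), with metformin at -0.19 of HFD (-0.69 to 0.31) and resveratrol at 0.34 (-0.19 to 0.88). Its call was lost without normal diet 1 (adjusted p = 0.0505) or normal diet 3 (0.0531).

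Cholesterol and matrix genes rose in the pooled comparison, but mostly with a called return under a drug. In cholesterol synthesis 7 of 27 members rose and none fell, beside 4.13% of all genes that rose (median 0.41). Over all genes a drug moved back 245 of the 724 that rose, and in this list 6 of the 7. The one without a called return was Hmgcs1, which condenses acetoacetyl-CoA for mevalonate, at means of 132, 337, 288 and 263 CPM (1.16, SE 0.20, adjusted p = 0.00486), with metformin at -0.23 of HFD (-0.72 to 0.26) and resveratrol at -0.36 (-0.89 to 0.17). Insig1, a sterol-sensing brake of the pathway, had means of 95.4, 518, 211 and 182 CPM and was lowered by both drugs. Among collagens and matrix proteins 12 of 34 rose and 1 fell (median 0.39), beside 4.13% and 3.97% of all genes. Metformin moved 8 of the 12 back, Col6a2 and Sparc among them. Of all 724 genes that rose, 134 were moved back by metformin alone and 96 by both drugs. Col15a1, a basement membrane collagen, was retained at 333, 976, 673 and 662 CPM (1.19, SE 0.24, adjusted p = 0.0102), with metformin at -0.54 of HFD (-1.12 to 0.05) and resveratrol at -0.56 (-1.19 to 0.08), as was the fall of Dcn, the small proteoglycan decorin (-0.71, SE 0.13, adjusted p = 0.00532). Without the libraries rich in ciliated epithelium genes 4 cholesterol and 6 matrix genes rose, and without 1 library at a time 6 to 10 and 4 to 13.

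Genes of lipid-associated macrophages were higher with HFD and were not called higher in either drug group. Their median log2 fold change was 1.43 with HFD, -0.06 with metformin and -0.06 with resveratrol. Of 25 genes of lipid-associated macrophages, 17 were higher in HFD than in normal diet (13.8% of all genes were), none in metformin or resveratrol (0.804% and 0.103% of all genes were), and 2 in the pooled comparison, Fabp5 and Lgals1. Trem2, the lipid receptor of these cells, read 3.15, 5.66, 32.8 and 6.51 CPM on normal diet, 15.8, 124, 149 and 164 CPM with HFD, 7.62, 14.5, 7.97 and 6.83 CPM with metformin, and 6.85, 11.3 and 4.97 CPM with resveratrol. The 3 titled HFD libraries were high and the unmatched one was not, and the pooled difference was not called (0.73, SE 0.63, adjusted p = 0.528). Lysosome genes were higher in HFD for 20 of 28, cell cycle genes for 12 of 27 and MHC class II genes for 7 of 11. The pooled comparison called 1 of these 3 lists' genes, Npc1, which fell. Without 1 library at a time 0 to 5 lysosome, 0 to 6 cell cycle and 0 to 2 MHC class II genes rose. Without both unmatched libraries 4, 0 and 2 rose, in that order. Metformin and resveratrol lowered Itgax against HFD by log2 values of -3.24 (-4.71 to -1.77) and -3.75 (-5.46 to -2.05). Every metformin library, at 12.7 CPM or more, exceeded the normal diet libraries other than replicate 3, which read at most 8.49 CPM. The pooled Itgax difference was not called, but it was in 1 of the 15 runs that left out 1 library (edgeR adjusted p = 0.0476).

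**Figure D4:**
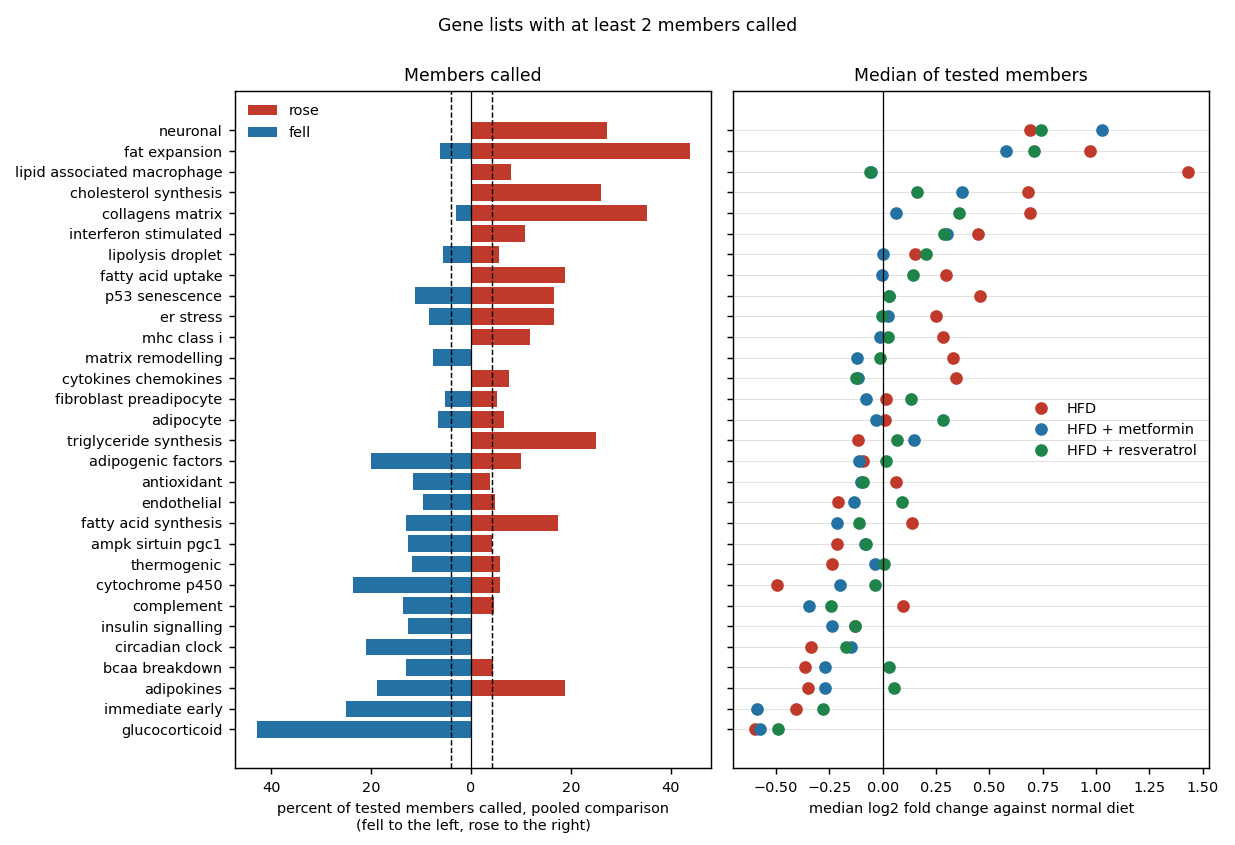
Left, percent of tested members of each gene list that rose (right of 0) or fell (left of 0) in the pooled comparison, for lists with at least 2 members called, other than epididymis with seminal vesicle and skeletal muscle; dashed lines mark the 4.13% and 3.97% of all genes that rose and fell. Right, median log2 fold change of the tested members in each high-fat-fed group against normal diet, where the 3 groups lie close together for the glucocorticoid list and only HFD lies far from 0 for lipid-associated macrophages.

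Levels of markers of other cell types were as follows. The B cell list summed to 66.5 to 148 CPM on normal diet, 211 to 317 CPM with HFD, 142 to 470.1 CPM with metformin and 84.2 to 552 CPM with resveratrol. The metformin and resveratrol ranges overlapped with normal diet. Ighm, the IgM heavy chain, rose at means of 45.9, 227, 211 and 200.5 CPM (2.21, SE 0.43, adjusted p = 0.00833). It was the single called member of 16, beside 4.13% of all genes that rose. The median log2 fold change of the B cell list was 0.04, 1.16 and 0.88 with HFD, metformin and resveratrol. The adipocyte list summed to 33048 to 47904 CPM on normal diet and 25853 to 49703 CPM in the fed libraries. Of 12 tested genes of the epididymis and seminal vesicle list 5 fell, beside 3.97% of all genes that fell. These were the seminal vesicle genes Svs2, Svs4, Svs5, Svs6 and Pate4. Svs4 read 14.8, 84.4, 0.107 and 462 CPM in the normal diet libraries and at most 1.82 CPM in the fed ones. The normal diet library with 0.107 CPM overlapped with the fed libraries. Without 1 library at a time 3 to 5 fell, and without the libraries rich in ciliated epithelium genes 1. In the metformin group 2 other members, the epididymis genes Crisp1 and Spink8, were higher than normal diet, beside 0.804% of all genes. The median of the list was 0.88 in that group. The whole list summed to 1.53 to 1164 CPM on normal diet, 0.587 to 5.22 CPM with HFD, 38.8 to 172 CPM with metformin and 1.57 to 91.4 CPM with resveratrol. Crisp1, the gene by which a resveratrol library was left out, belongs to this list. That library summed to 35078 CPM, so the resveratrol range was bounded by the choice of libraries. The part of such RNA in other decreases was not tested.

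Mitochondrially encoded mRNA made up 1.59% of counts on normal diet (SD 0.293, n = 4) and 1.18% in the fed libraries (SD 0.24, n = 11). The group means were 0.961%, 1.25% and 1.39% with HFD, metformin and resveratrol. The resveratrol libraries, at 1.26% to 1.62%, overlapped with normal diet, at 1.39% to 2.02%. Those of HFD, 0.826% to 1.13%, and metformin, 0.992% to 1.38%, lay below it. An exact two-sided permutation test over the 1365 assignments of libraries gave p = 0.0161, and without 1 library at a time p = 0.0020 to 0.0907, the highest without normal diet replicate 1. Of the 13 mitochondrial genes tested, mt-Atp6 fell in the pooled comparison (-0.71, SE 0.16, adjusted p = 0.0198) and 10 fell in HFD (9.34% of all genes did). None of 30 nuclear respiratory chain genes was called in the pooled comparison, beside 4.13% of all genes that rose and 3.97% that fell.

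Among 24385 lncRNAs the pooled comparison called 203 higher (0.832%) and 2099 lower (8.61%), scaled by the mRNA counts of the same library. The median lncRNA was shifted by -0.27 on the log2 scale. Scaled by the lncRNA counts themselves, the shift was -0.02 and the calls were 310 higher and 304 lower, so that the excess of decreases depended on this choice. LncRNA counts other than those of small structural RNAs amounted to 20.9% to 24% of the mRNA counts on normal diet and 17.3% to 22.2% in the fed libraries. One lncRNA differed in each of the 3 groups (0.0041% of lncRNAs), NONMMUT022770.2 at chr15:11877739-11880099 on GRCm38, within the span of Npr3. It read 22.3, 22.4, 18.3 and 23 CPM on normal diet, 65.6, 53, 53.9 and 37.2 CPM with HFD, 59.9, 53.9, 51.9 and 73.6 CPM with metformin, and 67.4, 57.2 and 54.4 CPM with resveratrol. All fed libraries exceeded all normal diet ones (pooled log2 fold change 1.41, SE 0.15; adjusted p over the 3 groups 0.0462), and it was called under either scaling. The counting is not stated to use strand, so its reads and those of Npr3, which also rose, cannot be told apart. Its call was lost in 11 of the 15 runs that left out 1 library (adjusted p up to 0.205), all but those without HFD 3, HFD + metformin 2, HFD + metformin 4 or HFD + resveratrol 2. It was also lost without the 2 unmatched libraries (0.0819), with the high-Crisp1 library kept, and without the libraries rich in ciliated epithelium genes (0.413).

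The Ensembl lncRNA 1700047G03Rik, at chr15:11964276-11970086 beyond the Npr3 span, had means of 2.06, 26.1 and 13.7 CPM in normal diet, HFD and metformin, and 5.93 to 13.1 CPM with resveratrol (pooled log2 fold change 2.89, SE 0.35). All fed libraries, 5.04 to 31.2 CPM, exceeded the normal diet maximum of 2.58 CPM. Against normal diet, metformin passed the threshold (adjusted p = 0.0124) and resveratrol did not (adjusted p = 0.0551). At 1700047G03Rik both drugs lay below HFD without passing adjustment, by -0.93 (-1.68 to -0.18) and -1.38 (-2.22 to -0.55). NONMMUT043736.2, at chr3:87010137-87012244 near Cd1d1, a lipid-antigen presenting gene that adipocytes express, had means of 1.20, 10.6, 5.96 and 6.05 CPM (2.61, SE 0.34). Cd1d1 itself rose from 288.5 to 425.7 CPM (0.57, adjusted p = 0.0427).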

How the data were processed

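The authors deposited transcript tables of counts and of FPKM (fragments scaled to transcript length and library size) for mRNA and lncRNA; fastp, HISAT2 and the build GRCm38 are listed in the submitters' processing notes, and the counting tool is not given in the sources used here. The deposited counts were summed to 27150 genes, and 5 records broken over lines were rejoined. The deposited FPKM served only to check which count column belonged to which library, and 4 of its columns were not used. Of 16 count columns, 14 matched a title, and the codes of the other 2 show the group only.

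The 15 libraries were fitted in edgeR 4.0.16 (R 4.3.3; filterByExpr, TMM, robust quasi-likelihood, 4 groups, Benjamini-Hochberg over all genes, threshold 0.05). The pooled contrast was the unweighted mean of the 3 fed groups minus normal diet. A gene changed in each group when the largest of its 3 p-values, adjusted, passed with 1 direction. LncRNAs used the library sizes and TMM factors of the mRNA table. CPM are TMM-normalised, except sums over marker lists; intervals are 95%. DESeq2 1.42.0, other filters, other scalings, a ciliated epithelium covariate and left-out libraries were alternatives. Scripts were tested on simulated data. Figures used matplotlib 3.10.9.

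Genes named are those changed in each group, members of 48 lists, and a fixed set that includes Lep, Irf4, Dgat2, Itgax and Per1; further list members were picked after their values were seen. The members and lists were chosen with earlier results of these data known. For mRNA genes, those of few counts left out, depth and counting error are small beside the spread between libraries. Replicate pairs differed by a chi-square per degree of freedom of 13.6 to 133 among the 15 libraries. LncRNAs and genes with few counts were not covered. Some list members are not reported here.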

Additional observations from a re-analysis of the deposited data

Results flagged for a closer look

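In groups of 4, a library was listed when its gap to the next was above Dixon's 95% limit; 22 of 258 groups (8.53%) met this, where chance gives about 1 in 20. The unmatched HFD library was the highest of its group for Slc2a4 (156.0 CPM), Adipoq (3056 CPM), Eif4ebp3 (8.132 CPM), Fam13a (399.4 CPM), Cyp2e1 (1410.0 CPM), Hsd11b1 (61.62 CPM), Prkag3 (21.38 CPM) and Rassf6 (0.7228 CPM), and the lowest for Krt79 (7.409 CPM). Normal diet 3 was the highest of its group for Trem2 (32.76 CPM), Itgax (32.7 CPM) and Tfpi2 (2.837 CPM), and the lowest for NONMMUT022770.2 (18.3 CPM). The unmatched metformin library was the highest of its group for Trem2 (14.46 CPM) and Itgax (39.24 CPM). Metformin 2 was the highest for Dsg1a (11.78 CPM) and Dnmt3l (4.69 CPM). Other normal diet libraries stood highest for Sfrp5 (136.6 CPM, replicate 4), Med14 (112.2 CPM, replicate 2), Nr4a2 (7.783 CPM, replicate 2), Dsg1a (0.07684 CPM, replicate 1) and Fmo4 (3.765 CPM, replicate 1).

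In the HFD + resveratrol library left out of the comparison, Crisp1 stood at 12130.7 CPM.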

How the results depend on the processing

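Genes changed in each group numbered 8 higher and 4 lower. They were 29 and 9 with a ciliated epithelium covariate, 124 and 99 with DESeq2, 2 and 2 without both unmatched libraries, 0 and 0 with the high-Crisp1 library kept, 0 and 0 without the libraries rich in ciliated epithelium genes, and 5 higher with no filter on low counts. Leaving out 1 library gave 2 to 53 and 0 to 10. Pooled calls, 724 and 697, were 355 and 347 with a 2-level diet factor, 1341 and 1094 with DESeq2, 87 and 138 with the high-Crisp1 library, 1185 higher with the covariate and 391 lower without the ciliated-rich libraries. Leaving out 1 library gave 376 (normal diet 2) to 1167 (metformin 2) higher and 373 (normal diet 1) to 955 (unmatched HFD) lower. Retained genes, 166 and 219, were 32 and 70 with the high-Crisp1 library and 539 and 356 without the ciliated-rich libraries, and 162 to 361 and 188 to 310 without 1 library.

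Pooled lncRNA calls, 203 higher and 2099 lower, were 116 and 588 with a 2-level factor, 44 and 788 with the high-Crisp1 library, 116 and 1051 with no filter, 310 and 304 with lncRNA scaling, and 98 and 395 without the ciliated-rich libraries; 1 library left out gave 109 to 269 and 959 to 2420. The 1 lncRNA higher in each group became 8 with the covariate, 32 with DESeq2 (33 lower), 0 with the high-Crisp1 library, 2 with no filter, 0 without the unmatched libraries, 3 without the ciliated-rich libraries, and 0 to 10 (lower 0 to 3) without 1 library. The mitochondrial share difference of -0.402 percentage points was -0.336 (exact permutation p = 0.0819) with the high-Crisp1 library and -0.482 (p = 0.050, exact permutation) without the ciliated-rich libraries, and -0.468 to -0.259 without 1 library. That of small structural RNAs, 0.622 (exact permutation p = 0.283), was 1.03 without the ciliated-rich libraries (p = 0.0667, exact permutation) and 0.418 to 0.811 without 1 library.

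Directions turned for 2 genes that were not called and for 1 that was. Adipoq (-0.09 on the log2 scale) was 0.017 with the covariate and -0.26 to 0.087 without 1 library, the highest without normal diet 1. Dbp (0.12) was -0.13 with the covariate, -0.58 without the ciliated-rich libraries, and -0.19 (resveratrol 2) to 0.56 (normal diet 4) without 1 library. The smallest of the 3 group changes of Med14 (-0.57) was 0.055 with the high-Crisp1 library. Of other values of named features, 2211 kept their direction and side of the threshold and 317 lost a call. The cause was not tested. No paired analysis was possible because replicate numbers follow accession order and pair no animals.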

Other observations

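In the list of AMPK, sirtuin and PGC-1 genes 3 of 24 fell and 1 rose in the pooled comparison, beside 3.97% and 4.13% of all genes, with a median of -0.15. Without 1 library at a time 1 to 4 fell. Sirt1, Ppargc1a and Prkaa2 were not called (edgeR adjusted p = 0.439, 0.136 and 0.228). Nampt, the enzyme that salvages nicotinamide for NAD, had means of 142, 104, 101 and 109.6 CPM in normal diet, HFD, metformin and resveratrol (pooled log2 fold change -0.44, SE 0.10, edgeR adjusted p = 0.0203), and its call was lost without normal diet 3 or 4 (adjusted p up to 0.0732). Nrf1, a transcription factor of nuclear mitochondrial genes, had means of 28.8, 21, 22.4 and 24 CPM (-0.36, SE 0.06, adjusted p = 0.00431). Both kept all fed libraries below all normal diet libraries. From other lists, Atf4, the main transcription factor of the integrated stress response, fell from 93.5 CPM to 79.9, 68.4 and 72.0 CPM (-0.35, SE 0.06, adjusted p = 0.00392), with the lower means in the drug groups. Ebf2, a factor of beige adipocyte identity, had means of 73.7, 33.5, 38.1 and 59.4 CPM (-0.80, SE 0.16, adjusted p = 0.0106).

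Tph2, the neuronal enzyme of serotonin synthesis, had means of 0.280, 59.4, 2.54 and 1.40 CPM. Both drugs lowered it against HFD (adjusted p = 0.0120 and 0.0349), and the unmatched HFD library read 7.77 CPM against a highest value of 107 CPM in the others.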
